A study of Homo sapiens with 32 samples.

Results

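The large ribosomal subunit was followed through a pooled CRISPR-knockout screen by 42 of its protein genes, *RPL3* to *RPL39* with *RPLP0*, *RPLP1* and *RPLP2*. Members were the entries of the deposited count table whose Ensembl identifier maps to one of the 42 symbols. All 42 were found among 18638 genes, with 4 sgRNAs each, 168 of the 74987 sgRNAs of the table. The cells were RKO, an established colon carcinoma line, made to express Cas9 and Kinprola_PKA, a reporter that takes up the dye CPY-CA for as long as protein kinase A (PKA) is active. They received the HD CRISPR sublibrary A and puromycin selection, were labeled on day 6, and were sorted by normalized labeling (CPY-CA/EGFP) into 3 populations. The high population held about 25% of the cells, the medium population about 50% and the low population about 25%. The labels call the medium population basal and give all samples a WT genotype. The line nonetheless carried the Cas9 and Kinprola_PKA transgenes, and its cells received sgRNAs of the library. A day 0 control is called T0 here. There were 2 screens, labelled replicates 2 and 3, each with 1 library for each of the 3 populations and 1 for T0, all in the same engineered line.

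The large subunit joins amino acids into protein at its peptidyl transferase centre, which is made of RNA, and lets the growing chain out through the exit tunnel. Its proteins are added stepwise to the ribosomal RNA in the nucleolus, the nucleus and at last the cytoplasm, and most of them are needed for a working subunit, so that dividing cells do not tolerate their loss. Inherited loss of a copy of *RPL5*, *RPL11* or *RPL35A* causes Diamond-Blackfan anaemia, and *RPL5* and *RPL11*, bound to 5S ribosomal RNA, also hold back the ubiquitin ligase MDM2.

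The sgRNA cassettes were amplified from genomic DNA by PCR before sequencing. Reads of an sgRNA therefore follow the share of a population's cells that carry it and are no count of cells. Libraries had 23369720 to 31777138 reads after the 4 sequencing lanes of each were summed. Member sgRNAs were rarer than most already at T0, with a median of 170 scaled reads against 311 over all sgRNAs and 292 over sgRNAs without a target. Those of small ribosomal subunit genes had a similar median of 193. Over the 8 libraries, a member had a median of 94.6 reads per sgRNA (28.4 to 490), against a mean of 369 over the table, and 25 of the 42 had under 100. Member values are therefore less precise than those of most genes, and intervals or floors drawn from PCR reads without molecular identifiers cover counting error only. Below, scaled reads are counts brought to the mean library total and summed over the 4 sgRNAs of a gene, with replicate 2 given before replicate 3. A log2 fold change was taken within each screen after adding 1 read, averaged over the sgRNAs and then over the 2 screens. Its SE and adjusted p come from limma with Benjamini-Hochberg adjustment over all entries, and a gene was called at an adjusted p under 0.05. With 2 screens of the same line, these p-values measure only the spread between the 2, shared out over all genes.

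All 42 members fell between T0 and the day 6 pool, which was rebuilt from the sorted libraries in proportion to their gates. Over all genes, 8.35% were called lower in the same comparison and 2.54% higher (limma). The median log2 fold change of the members was −2.16, against 0.04 over all genes. A log2 fold change of −1 or lower was reached by 38 members, against 3.06% of all genes, and −2 or lower by 23, against 1.01%. In every member, all 6 sorted libraries lay below both T0 libraries, as in 10.1% of all genes. Members took 0.142% and 0.13% of the T0 reads.

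The greatest falls were seen for *RPL15*, *RPL21*, *RPL7A* and *RPL37*. *RPL15*, needed to process the RNA of the large subunit, had pooled reads of 50 and 49, against 479 and 369 at T0, a log2 fold change of −3.35 (SE 0.09, n = 2, limma adjusted p = 3.23e-19). *RPL21*, near the 5S RNA on top of the subunit, had 18 and 33 pooled reads, against 416 and 323 at T0, with a log2 fold change of −3.32 (SE 0.11). *RPL7A*, which joins early in yeast, had 190 and 153, against 1090 and 1146 at T0 (log2 fold change −3.18, SE 0.10). In these 3 genes, 4.3% to 17.4% of the T0 level was left in either screen. *RPL37* followed at −2.93 (SE 0.10).

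The smallest falls belonged to *RPL28*, *RPLP1*, *RPL22* and *RPLP2*. *RPL28*, which has no counterpart in budding yeast, had 1878 and 1777 pooled reads, against 2622 and 2200 at T0 (log2 fold change −0.38, SE 0.10, limma adjusted p = 0.00838). *RPL22*, which mice survive without and which has a close paralog in *RPL22L1*, had 1091 and 1151, against 1844 and 1847 at T0 (log2 fold change −0.83, SE 0.09). The acidic stalk proteins *RPLP1* and *RPLP2* gave −0.72 and −0.89 (SE 0.10 and 0.11). These were the 4 members that did not reach −1. Next above them in loss stood *RPL35* at −1.05 and *RPL29* at −1.29, *RPL29* being a protein whose loss mice survive.

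In high versus low labeling, 28 of the 42 members were lower, 1 was higher and 13 were not called. Over all genes, 2.73% were called lower and 5.25% higher (limma). The median log2 fold change of the members was −1.05, against −0.01 over all genes. All 28 were lower in both screens, and their adjusted p-values reached at most 0.0337. Of the 15 genes in the whole table with a log2 fold change of −2 or lower, 7 were members, namely *RPL10A*, *RPL18*, *RPL10*, *RPL14*, *RPL27A*, *RPL4* and *RPL3*. Members also made up 21 of the 100 lowest genes. In summed scaled reads, both high libraries lay below both low libraries in 30 members and above them in 5, against 25.4% and 22.3% of all genes.

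**Figure D1:**
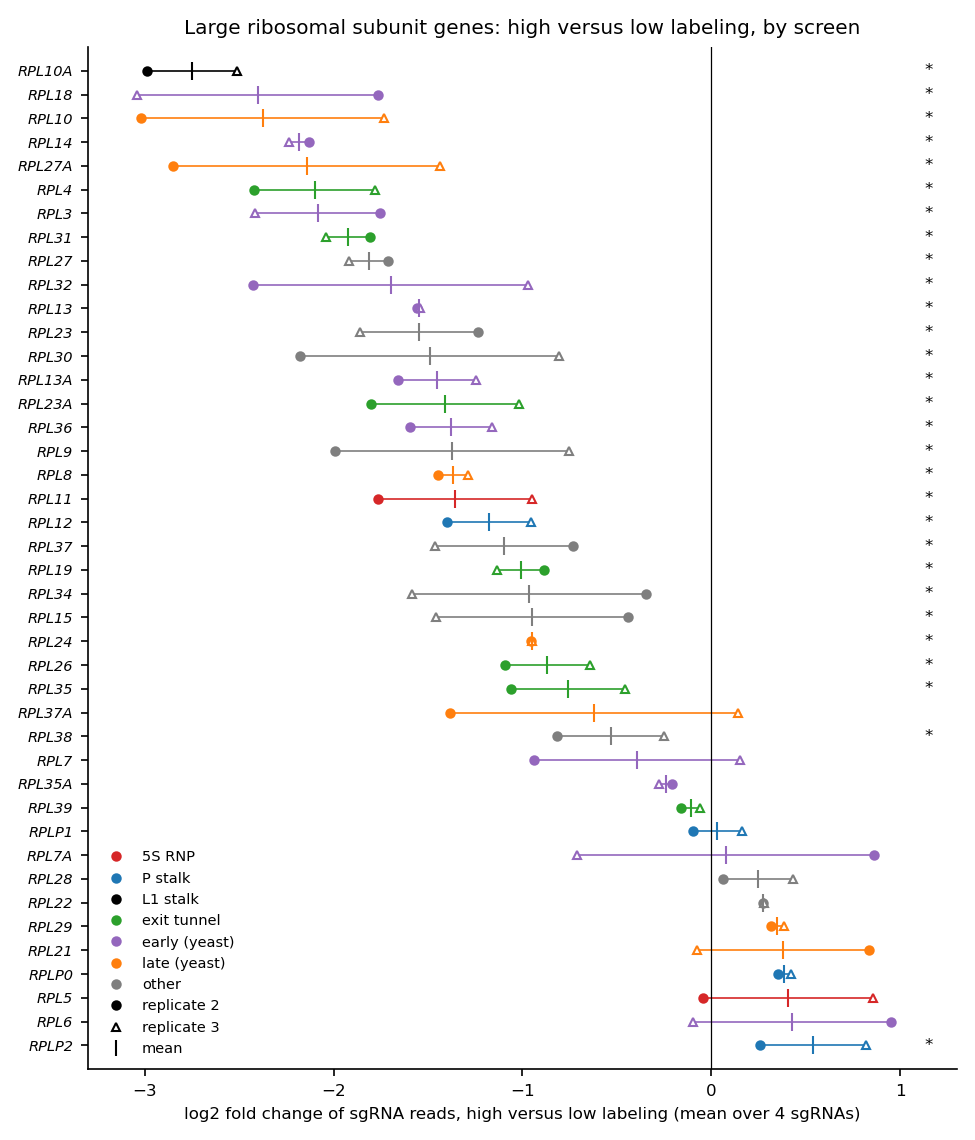
Log2 fold change of sgRNA reads in high versus low labeling (x axis, mean over 4 sgRNAs) for the 42 members (rows, colored by role). Filled dots are replicate 2, open triangles replicate 3, vertical ticks the mean of the 2 screens, and an asterisk marks a limma adjusted p under 0.05; 28 members carry an asterisk left of 0 and only *RPLP2* right of it, with *RPL10A* lowest at −2.75.

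*RPL10A* forms the L1 stalk, which swings to let the spent transfer RNA leave. It lies at chr6:35468401-35470785 on the plus strand (GRCh38) and had the lowest value of all 18638 genes with 1 added read and the mean over sgRNAs. It had 57 and 69 scaled reads in the high libraries, against 257 and 169 in the low libraries, with 37 and 28 in the medium libraries and 738 and 557 at T0. In these sums, low stood above the other gates in both screens, and high stood above medium. The log2 fold changes in high versus low were −2.99 and −2.51, with a mean of −2.75 (SE 0.13, limma adjusted p = 1.46e-07). The rank and size depended on this scale, since 5 added reads gave −1.94 for *RPL10A* and −2.15 for *RPL10*, and edgeR on summed reads gave −1.75 and −2.44.

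Of the 7 members that join late in yeast, 4 were lower and 3 were not called. *RPL10* (chrX:154389955-154409168, plus strand) is the protein that completes the subunit in the cytoplasm and reaches toward the catalytic centre. It had 97 and 111 scaled reads in the high libraries, against 718 and 430 in the low libraries, with 194 and 198 in medium and 1122 and 1095 at T0. Its groups did not overlap, and high was below medium as well as below low; the log2 fold change was −2.38 (SE 0.22, limma adjusted p = 1.76e-05). *RPL8*, which also touches the catalytic centre, had −1.37 (SE 0.11), but its sgRNAs were uneven. sgRNAs 1 and 4 of *RPL8* had −3.15 and −1.71, while sgRNAs 2 and 3, which hold most of its reads, had −0.50 and −0.11, and edgeR on summed reads gave −0.43 (adjusted p = 0.0172). *RPL27A* had 87 and 89 scaled reads in high, against 444 and 271 in low, 139 and 134 in medium and 1044 and 883 at T0, giving −2.14 (SE 0.24). *RPL24*, part of a bridge to the small subunit, was lower at −0.95 (SE 0.11), while *RPL37A* (−0.62), *RPL29* (0.35) and *RPL21* (0.38) were not called.

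Of the 11 members that join early in yeast, 7 were lower, with a group median of −1.45. *RPL18* (chr19:48615328-48619184, minus strand) had 125 and 101 scaled reads in the high libraries, against 429 and 308 in the low libraries, with 172 and 113 in medium and 878 and 932 at T0. Its log2 fold change of −2.40 (SE 0.22) rested on screens at −1.76 and −3.04, both far below 0. In replicate 3, its sgRNAs 2 and 3 had 0 counts in high, against 27 and 22 in low, giving −4.94 and −4.65. Its sgRNAs 1 and 4 gave −1.52 and −1.06 in that screen. Only 1 of its 4 sgRNAs was called lower, and edgeR on summed reads gave −1.70 for the gene. *RPL14* had 40 and 44 scaled reads in high, against 178 and 205 in low, 92 and 37 in medium and 417 and 454 at T0, with a log2 fold change of −2.18 (SE 0.11). *RPL3*, whose loop reaches into the catalytic centre, had 165 and 72 in high, against 546 and 404 in low, 145 and 201 in medium and 1098 and 986 at T0 (−2.08, SE 0.15). In all 3, the high and low libraries were apart by more than the spread within either gate. *RPL32* (−1.70), *RPL13* (−1.55), *RPL13A* (−1.45) and *RPL36* (−1.38) were also lower. The other 4 were not called, with −0.39 for *RPL7*, −0.24 for *RPL35A*, 0.07 for *RPL7A* and 0.43 for *RPL6*.

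The sign was the same in both screens for 35 of the 42 members, against 11470 of 18638 genes. *RPL5*, *RPL7*, *RPL21*, *RPL37A* and *RPLP1* changed sign between the screens, as did *RPL6* and *RPL7A*, and none of them was called. *RPL6* had 150 and 145 scaled reads in high, against 139 and 105 in low, 99 and 108 in medium and 491 and 425 at T0, with log2 fold changes of 0.95 and −0.10. *RPL7A* had 174 and 91 in high, against 328 and 236 in low, 128 and 143 in medium and 1090 and 1146 at T0. Its summed reads were lower in high in both screens, yet the mean of its sgRNAs gave 0.86 and −0.71, since its sgRNAs disagreed. The edgeR test on summed reads called *RPL7A* lower, at −1.08 (edgeR adjusted p = 0.00108).

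Around the exit tunnel, 6 of 7 members were lower. *RPL4*, which narrows the tunnel, had 92 and 124 scaled reads in high, against 438 and 274 in low, 116 and 171 in medium and 1111 and 965 at T0, with a log2 fold change of −2.10 (SE 0.14). *RPL31*, at the mouth of the tunnel, had 199 and 139 in high, against 615 and 422 in low, 237 and 267 in medium and 1001 and 995 at T0 (−1.92, SE 0.11). In both genes the low libraries stood apart from the 4 other sorted libraries. *RPL23A*, a docking site for factors that meet the new chain, had −1.41, *RPL19* −1.01, *RPL26*, the target of UFM1 modification, −0.87, and *RPL35* −0.76. *RPL39*, the shortest member with 153 coding bases, was not called at −0.11 (SE 0.11), although its log2 fold change since T0 was −2.34.

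The P stalk, which recruits the GTPases of translation, went the other way in part. *RPLP2* (chr11:809965-812880, plus strand) was the only member called higher in high versus low, with 1052 and 1046 scaled reads in high, against 930 and 639 in low, 878 and 939 in medium and 1778 and 1277 at T0. The high libraries were above the low libraries in both screens, by a log2 fold change of 0.26 and 0.82 (mean 0.54, SE 0.14, limma adjusted p = 0.031). *RPLP0*, the base of the stalk, had 223 and 230 in high, against 166 and 196 in low, 145 and 156 in medium and 711 and 757 at T0. Its high libraries too were above its low libraries, but the log2 fold change of 0.39 (SE 0.11) was not called, with a limma adjusted p of 0.0529. *RPLP1*, the partner of *RPLP2*, had 908 and 889 in high, against 947 and 742 in low, 1045 and 1004 in medium and 1653 and 1399 at T0, and its log2 fold change was 0.03 (SE 0.11). *RPL12*, which binds beside *RPLP0*, was lower, with 152 and 158 in high, against 333 and 269 in low, 162 and 177 in medium and 607 and 474 at T0 (−1.18, SE 0.13). The call of *RPLP2* was lost when limma was fitted on the libraries themselves (adjusted p = 0.0965 with the screen as a block), and that of *RPL12* when the spread was allowed to depend on read number (limma adjusted p = 0.0875).

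The 5S RNP pair differed. *RPL11* (chr1:23691742-23696835, plus strand) was lower, with 118 and 92 scaled reads in high, against 386 and 186 in low, 189 and 86 in medium and 758 and 799 at T0. Its log2 fold change was −1.36 (SE 0.16, limma adjusted p = 1.48e-04), and its 4 sgRNAs lay between −1.49 and −1.21. The call was lost with limma on the libraries without the screen as a block (adjusted p = 0.173). *RPL5* (chr1:92832013-92841924, plus strand) had 217 and 238 in high, against 328 and 225 in low, 222 and 154 in medium and 585 and 541 at T0. Its gates overlapped, and the log2 fold change of 0.41 (SE 0.17) was not called. The difference between *RPL5* and *RPL11* was not tested. The positive sign of *RPL5* came from a single sgRNA with no reads in the low libraries, and with the median over sgRNAs it turned to −0.28.

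**Figure D2:**
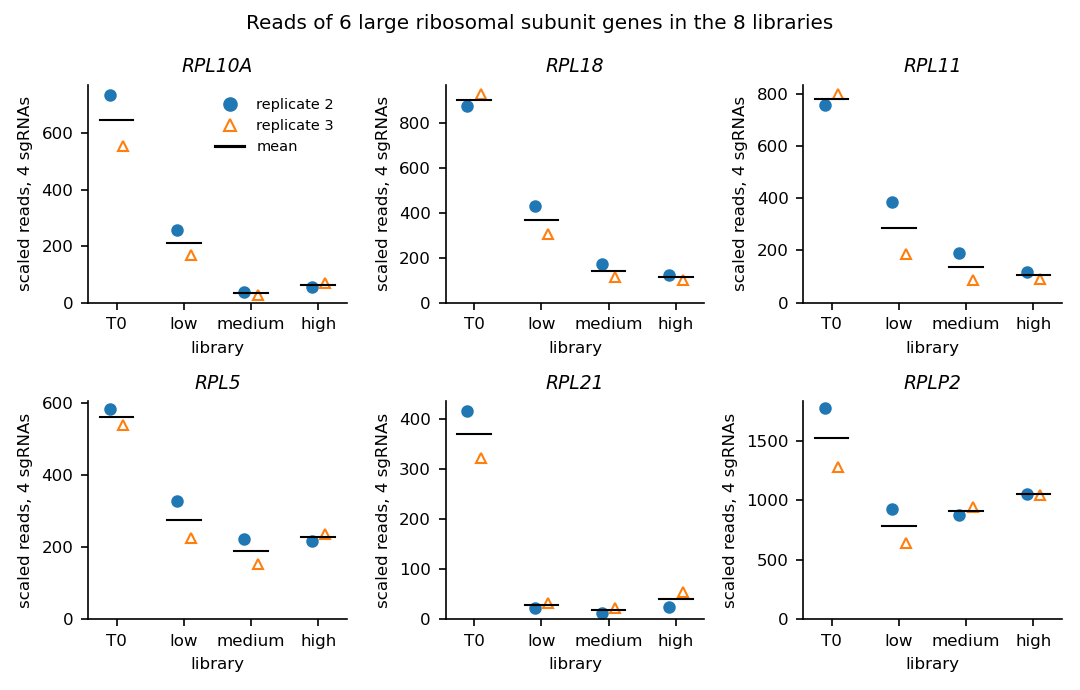
Scaled reads summed over 4 sgRNAs (y axis, from 0) in the 8 libraries (x axis, T0, low, medium and high) for 6 members. Dots are replicate 2, open triangles replicate 3 and bars their mean; *RPL10A*, *RPL18* and *RPL11* stand higher in low than in high, whereas *RPLP2* reaches 1052 and 1046 reads in high, against 930 and 639 in low.

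Of the 10 members with no group of their own here, 8 were lower. *RPL27* led them at −1.81 (SE 0.11), followed by *RPL23*, the docking point of the anti-joining factor EIF6, at −1.55, *RPL30* at −1.49, *RPL9* at −1.37, *RPL37* at −1.10, *RPL34* at −0.97, *RPL15* at −0.95 and *RPL38*, which shapes the translation of homeobox messages in mouse embryos, at −0.53. *RPL37* had 140 and 124 scaled reads in high, against 198 and 208 in low, 179 and 143 in medium and 842 and 762 at T0. *RPL15* had only 50 and 30 in high, against 74 and 68 in low, 37 and 50 in medium and 479 and 369 at T0. Both were lower in high than in low in either screen. Neither was called by edgeR on summed reads, and nor were *RPL9*, *RPL34* and *RPL38* (adjusted p = 0.103 to 0.454 for the 5 genes). The 2 members of this group that were not called were *RPL22* and *RPL28*. *RPL22* had 1254 and 1236 in high, against 1041 and 1131 in low, 1034 and 1119 in medium and 1844 and 1847 at T0, a log2 fold change of 0.28 (SE 0.11). *RPL28* had 1915 and 1959 in high, against 1737 and 1499 in low, 1929 and 1824 in medium and 2622 and 2200 at T0, with 0.25 (SE 0.12). The high libraries of both were above their low libraries, and edgeR on summed reads called *RPL28* higher (adjusted p = 0.0177).

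The medium population shows on which side of the gates the sgRNAs gathered. In low versus medium, 23 members were higher and none was lower, against 1.18% of all genes higher and 1.54% lower (limma). In that direction 2 had an unadjusted p under 0.05; edgeR and DESeq2 on summed reads called 0 lower, but the median over sgRNAs called 2 and a minimum of 50 reads at T0 called 1. The count of 23 became 9 with limma on the libraries without the screen as a block, and with the block 6 without replicate 2 of the low population and 5 without replicate 3 of it. The median was 1.01 on the log2 scale. This comparison shares the low libraries with high versus low and is no independent view of them. *RPL10A* had the highest value, 2.75 (SE 0.11), ahead of *RPL13A* at 1.95, *RPL23* at 1.91 and *RPL31* at 1.79. *RPL7*, which was not called in high versus low, was higher here at 1.19 (SE 0.12), on 113 and 93 scaled reads in low, against 70 and 44 in medium.

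High and medium differed far less, with a median of −0.04. In high versus medium, 5 members were lower and 1 was higher, against 0.0966% of all genes lower and 1.7% higher (limma). The 5 were *RPL18* (−1.17), *RPL10* (−0.96), *RPL34* (−0.75), *RPL9* (−0.74) and *RPL27* (−0.70). *RPL18* had 125 and 101 scaled reads in high, against 172 and 113 in medium, and *RPL10* 97 and 111, against 194 and 198. *RPL34* had 64 and 88, against 97 and 107, and *RPL9* 51 and 43, against 54 and 61. *RPL27* had 187 and 121, against 186 and 160, yet its mean over sgRNAs in replicate 2 was −0.80. Its sgRNA 2 had 0 counts in both high libraries and entered after adding 1 read. *RPL21* was higher at 0.84 (SE 0.09, limma adjusted p = 0.0176), on 24 and 55 scaled reads in high, against 13 and 22 in medium; the low libraries had 22 and 33 and T0 416 and 323. With the median over sgRNAs the counts became 10 lower and 6 higher, and with a spread that depends on read number both became 0. Counts over all genes under these settings are not given here. With limma on the libraries, 2 were lower without replicate 2 of the high population, 1 without replicate 3 of it and 3 without replicate 3 of the medium population.

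The sum of low and high minus 2 times medium, here called the asymmetry, is positive for sgRNAs that gather in the outer gates. It was 2.74 (SE 0.22, limma adjusted p = 0.0304) for *RPL10A*, the only member called, nearly all of it from low versus medium, against 0.0376% of all genes called higher and 0% lower. With *RPL10A*, 20 members were positive at an unadjusted p under 0.05, against 4.39% of all genes. *RPL13A* (2.45), *RPL23* (2.28), *RPL30* (2.03) and *RPL7* (1.99) came next and were not called. This measure turned on the processing, with 0 to 14 members called higher over the alternatives that used all libraries.

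**Figure D3:**
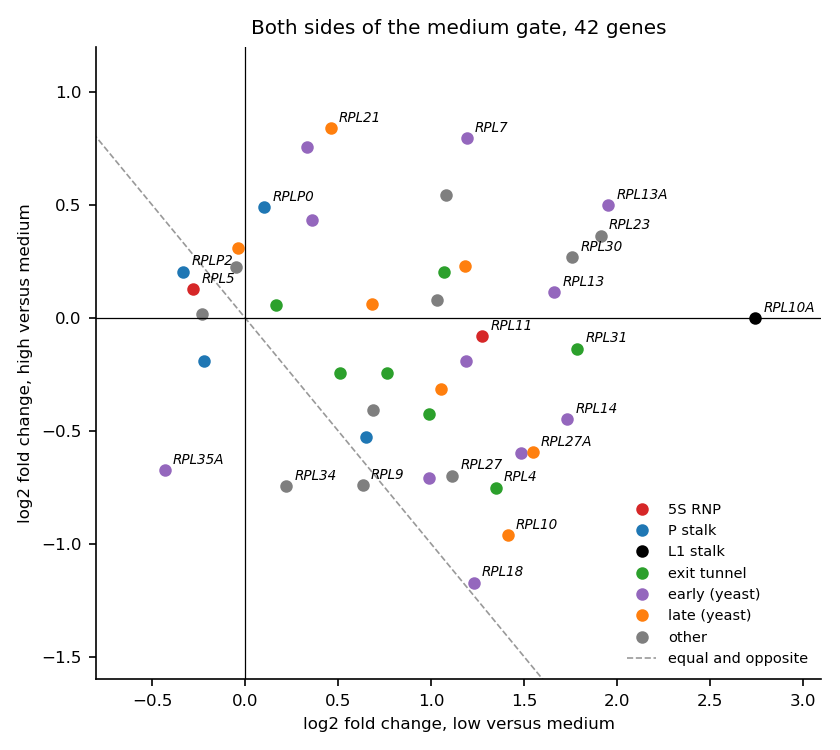
Log2 fold change in low versus medium (x axis) and in high versus medium (y axis) of the 42 members, colored by role, with a dashed line where the 2 would be equal and opposite. The comparisons share the medium libraries; points spread along the x axis up to *RPL10A* at 2.75 and lie around 0 on the y axis, where *RPL18* is lowest at −1.17 and *RPL21* highest at 0.84.

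Shares of the scaled sorted reads restate this per gene. An even spread over libraries of equal size would put 33.3% in each gate. The low library held the largest share for 35 members in replicate 2 and 29 in replicate 3, with medians of 49.2% and 45.2%. Such counts were not made over all genes. The high share had medians of 25% and 26%. *RPL10A* had 16.2% and 25.9% of its sorted reads in high, against 73.2% and 63.5% in low and 10.5% in medium in both screens. *RPLP0* had 41.8% and 39.5% in high, against 31.1% and 33.7% in low.

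Single sgRNAs showed how evenly a gene's value was carried. Of the 168 sgRNAs, 133 had a negative mean log2 fold change in high versus low, 110 of them in both screens, and 25 were positive in both. edgeR tested 154, of which 35 were lower and 1 was higher, against 1.55% lower and 2.95% higher over all sgRNAs tested. The other 14 had too few reads to be tested. In 25 members all 4 sgRNAs were negative. Shares over all sgRNAs or genes were not taken for these counts of sign. By gene, 32 of the 42 members had a negative mean, against 9797 of 18638 genes. For sorted cells versus T0, 150 sgRNAs were lower and none was higher, against 6.29% and 1.01% over all sgRNAs (edgeR). DESeq2 called 141 lower and 0 higher. In 27 members all 4 were lower by edgeR, a count that was not made over all genes.

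*RPL3* was the only member with all 4 sgRNAs lower in high versus low. They had −2.14, −2.17, −1.99 and −2.03, a range of 0.18. sgRNA 2 of *RPL3* had 70 and 26 counts in the high libraries, against 214 and 159 in the low libraries, 74 and 82 in medium and 530 and 395 at T0. *RPL10* and *RPL31* had 3 lower sgRNAs each. The 4 sgRNAs of *RPL10* lay between −2.62 and −2.12 as means of the 2 screens, although its sgRNA 1 had −3.68 and −0.73. sgRNA 3 of *RPL10* had 26 and 32 counts in high, against 204 and 144 in low. Means as even as those of *RPL3* and *RPL10* were also seen for *RPL11* and *RPLP2*, with ranges of 0.28 and 0.30. In *RPLP2* all 4 were positive, from 0.39 to 0.69, although none passed the test alone.

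*RPL10A* was among the least even. Its sgRNA 2 had no counts in either high library, against 39 and 28 in the low libraries, at least 11.7-fold lower in high when a floor of 3 counts per library is put in place of 0. sgRNA 1 had 5 and 4 counts in high, against 86 and 44 in low, a log2 fold change of −3.61. sgRNA 3 had 50 and 47 in high, against 96 and 49 in low (−0.58), and was not called. Yet the 4 sgRNAs had fallen almost alike since T0, from −3.16 to −2.71. In *RPL27*, sgRNA 2 also had no counts in the high libraries, against 16 and 18 in low. It was at least 5.96-fold lower in high if the low counts are taken as exact, but was not called (edgeR adjusted p = 0.121). sgRNA 3 of *RPL27* had −0.18.

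*RPL5* and *RPL7A* held sgRNAs of opposite sign. sgRNA 2 of *RPL5* had 8 and 10 counts in high and none in either low library, at least 2.91-fold higher in high on the same floor, with 114 and 122 counts at T0. sgRNAs 1, 3 and 4 of *RPL5* gave −0.58, −1.11 and −0.02, and none of the 4 was called. sgRNA 4, with 159 and 109 counts in high, against 166 and 95 in low and 214 and 116 at T0, had hardly been lost (−0.26 since T0, edgeR adjusted p = 0.633). In *RPL7A*, sgRNA 4 had 99 and 30 counts in high, against 281 and 164 in low (−2.05) and was called lower, whereas sgRNA 2 had 36 and 30 in high, against 3 and 11 in low (2.22) and was not. The only member sgRNA called higher was sgRNA 3 of *RPL28*, with 583 and 405 counts in high, against 323 and 246 in low (0.69, edgeR adjusted p = 0.00491).

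**Figure D4:**
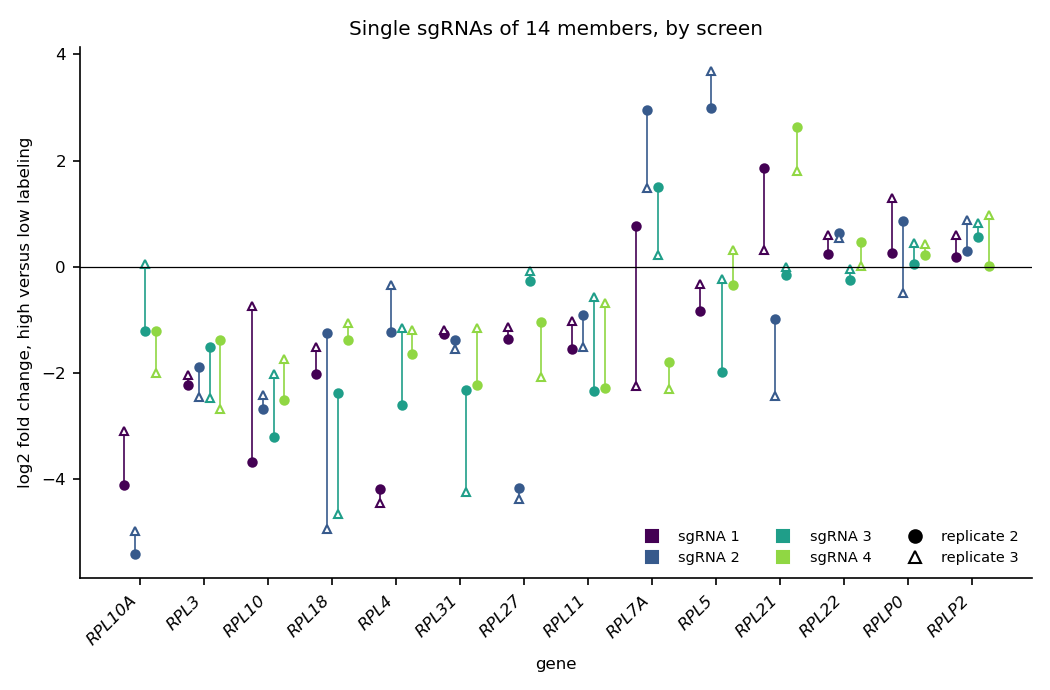
Log2 fold change in high versus low labeling (y axis) of the 4 sgRNAs (colors) of 14 members (x axis); filled dots are replicate 2, open triangles replicate 3, joined by a line. Single screens run from −2.67 to −1.38 for *RPL3* and from −3.68 to −0.73 for *RPL10*, whose sgRNA means over the 2 screens lie closer together. The sgRNAs of *RPL10A*, *RPL27*, *RPL7A* and *RPL5* are spread widely, and sgRNAs with 0 counts in a gate are drawn after adding 1 read.

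Set side by side, loss since T0 and labeling took several forms among the members; both comparisons use the sorted libraries, so no relation between them is given as a result. *RPL21*, *RPL7A* and *RPL6* had −3.32, −3.18 and −2.88 since T0, but 0.38, 0.07 and 0.43 in high versus low, where none was called. *RPL10A* had −2.88 since T0 and −2.75 in high versus low. *RPL35* and *RPL29*, at −1.05 and −1.29 since T0, had −0.76 (called) and 0.35 (not called). Between the screens, the high versus low values of the 42 members had a Pearson's r of 0.69 and a Spearman's rho of 0.70, against 0.88 and 0.84 for the loss since T0. These are correlations across genes that share their libraries. The screens differed in the log2 fold change of a member by a median of 0.58 in high versus low, with a largest difference of 1.57, and by a median of 0.20 in the loss since T0.

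**Figure D5:**
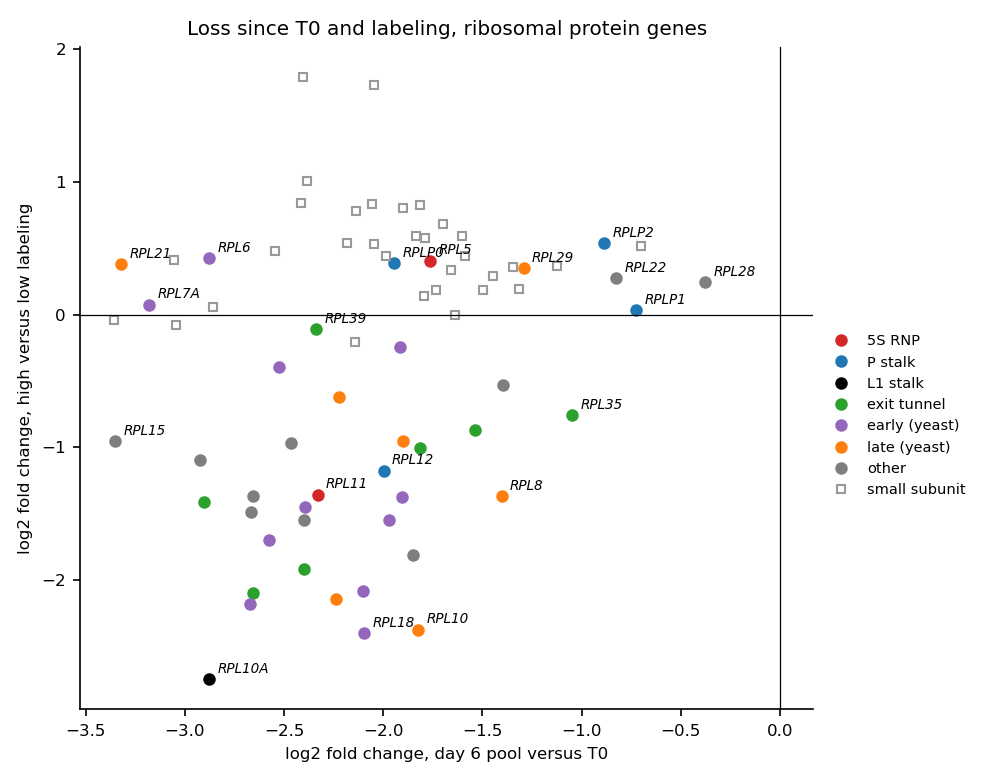
Log2 fold change of the day 6 pool versus T0 (x axis) and of high versus low labeling (y axis) for the 42 large subunit genes (filled, colored by role) and 32 small subunit genes (open squares), each point the mean of the 2 screens. Both sets lie left of 0 on the x axis; most large subunit genes lie below 0 on the y axis and most small subunit genes at or above it.

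The 32 small subunit genes of the table served as the nearest comparison. They were lost to a like degree, with 32 of 32 lower since T0 and a median of −1.87, but none was lower in high versus low and 16 were higher, at a median of 0.46 (limma). None of the 32 had an unadjusted p under 0.05 in the lower direction. Summed over the set, members had 12110 and 11666 scaled reads in high, against 19229 and 15050 in low. The small subunit genes had 14347 and 13400 in high, against 11720 and 9295 in low. The sets come from the same libraries, and no test of one set against the other was made. In low versus medium the small subunit had 1 gene higher and 2 lower, and in high versus medium 8 higher and none lower (25 higher and 0 lower at an unadjusted p under 0.05). A positive asymmetry was not particular to the members. In it, 23 of the 32 small subunit genes were positive at an unadjusted limma p under 0.05, with a median of 0.99, and 0 were called. The members had 20 of 42 and a median of 0.67.

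Paralogs of large subunit genes were read beside the members. *RPL22L1*, the paralog of *RPL22*, had −0.58 in high versus low (limma adjusted p = 0.0131) and −0.48 since T0, while *RPL22* had 0.28 in high versus low; the difference was not tested. *RPL7L1*, a paralog of *RPL7* with a role in subunit assembly, had 0.08 in high versus low but 1.24 in low versus medium and 2.56 in the asymmetry (limma adjusted p = 0.0304), beside 1.99 for *RPL7*. *RPL36AL* had −0.01 in high versus low and 0.89 in low versus medium (limma adjusted p = 0.0425).

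Factors that carry or place single members were read beside their clients. Of 12 such genes, 6 were lower in high versus low and none higher. *RPF2* (−1.81) and *RRS1* (−0.54), which place the 5S RNP in yeast, were lower, as was *HEATR3* (−0.64), whose yeast counterpart brings Rpl5 and Rpl11 into the nucleus. *EIF6* (−1.78), which sits on *RPL23* and keeps the subunits apart, was lower, and so were *NMD3* (−0.99 and −1.02 in the 2 screens), the export adapter, and *LSG1* (−0.72), the GTPase that in yeast releases Nmd3 as Rpl10 settles. *GRWD1* (−0.05) and *BCCIP* (−0.12), whose yeast counterparts guard Rpl3 and Rpl23, and *SBDS*, *EFL1*, *ZNF622* and *MRTO4* were not called. Most of these 12 were lost less than the members, with a median of −0.23 since T0, 5 of 12 lower, and *RPF2* the most lost at −1.42.

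The members lie on 17 chromosomes, 6 of them on chromosome 17 and 2 on X. Coding lengths ran from 153 to 1281 bases, and r with the high versus low values was −0.15 over the 42 genes. Ribosomal protein genes have many processed pseudogenes, copies of their messages elsewhere in the genome, and the annotation names 980 for the members, with a median of 15 per gene. *RPL7*, *RPL7A*, *RPL12*, *RPL21*, *RPL23A* and *RPL31* have 50 or more each. These 6 had a median log2 fold change since T0 of −2.71, against −2.04 in the other 36, and a median in high versus low of −0.79, against −1.05. Pseudogene number on a log10 scale and the log2 fold change since T0 had an r of −0.47 (rho −0.38) over the 42 genes. Reads per sgRNA at T0, which also enter that fold change, had an r of 0.68 (rho 0.58) with it. Whether sgRNAs also match such copies was not tested, as the sgRNA sequences were not used here.

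How firmly each member was placed was read from 11 settings of the high versus low test. Under every one of them, 17 members were lower, among them *RPL3*, *RPL4*, *RPL8*, *RPL10*, *RPL10A*, *RPL14*, *RPL18*, *RPL27A* and *RPL31*. The other 11 of the 28 lost their call under at least 1 setting, most often *RPL34* and *RPL38*, which kept it in 5, *RPL15* in 7, and *RPL9* and *RPL37* in 8. On summed reads, edgeR gave a log2 fold change more than 1.5 times smaller for *RPL8*, *RPL10A*, *RPL27* (−0.93), *RPL36* (−0.67), *RPL37* (−0.61) and *RPL38* (−0.31). Replicate 2 of the low population weighed most. Without it, 13 members were called lower by limma on the libraries, and without replicate 3 of the low population 18 were, against 25 with all libraries in that fit.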

How the data were processed

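The authors counted sgRNA reads with MAGeCK and deposited raw counts per sgRNA and lane; limma is also among the tools in the submitters' processing notes. An aligner and a genome build are not given in the sources used here. The deposited table has 4 columns that match no sample, and these were not used. Of the columns used, 28 were matched to samples by the labels' description and 4 by title, because the descriptions of the basal lane 4 samples repeat those of the high lane 4 samples; the titles and column names are distinct. Lanes were summed into 8 libraries, since they agreed within counting error (chi-square over its degrees of freedom, 1.02 to 1.03). No replicate was pooled.

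Each library was brought to the mean of the library totals before 1 read was added, and log2 fold changes within a screen were averaged over sgRNAs and tested with limma 3.58.1 (lmFit, eBayes; R 4.3.3), adjusted over 18659 entries. The steps follow the study's methods, which name neither the scaling nor the added read. Core-essential genes, which the study took out of its hit list, were kept. The day 6 pool is the sum of scaled reads weighted 0.25 for high, 0.5 for medium and 0.25 for low. For single sgRNAs, edgeR 4.0.16 was run (quasi-likelihood, TMM, filterByExpr) with the screen as a block, and DESeq2 1.42.0 was an alternative. limma's SE of a gene is drawn toward the spread of all genes, with prior degrees of freedom of 10.2 for high versus low. The screens were independent by the study's text, so same-numbered libraries share a screen. Their deviations from the group means correlated at 0.0671 to 0.161.

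The members and the gene lists were chosen with earlier results of these data known. Full library values are given for the 8 lowest and 4 highest members in high versus low, the 4 least and 4 most lost, and 9 members chosen for their roles. Names, coordinates and pseudogenes come from GENCODE release 44 (GRCh38). *RPL17* and *RPL39L* of the lists have no entry of that name in the table used. Some other genes of the lists are not reported here. The gene and sgRNA tests were tested on simulated data. Python 3.11.15 prepared the counts and drew the figures.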

Additional observations from a re-analysis of the deposited data

How the results depend on the processing

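All 42 members were lower since T0 under every alternative with all libraries except the medium library alone in place of the pool, which gave 41 and left *RPL28* uncalled at −0.34 (adjusted p = 0.124, limma). Members lower in high versus low numbered 21 to 29, of 28. Over all genes the same alternatives called 308 to 932 lower, of 508, and 728 to 1275 higher, of 979. For the alternatives of the other comparisons, counts over all genes are not given here. The count of 1 higher became 2 with 5 added reads, TMM scaling, edgeR or DESeq2 on summed reads, 3 with at least 50 reads at T0, the median over sgRNAs or centring on sgRNAs without a target, and 0 with limma on the libraries. With the replicate block, limma on the libraries gave 25 lower, 16 higher in low versus medium and 1 lower in high versus medium; without the pairing these were 21, 9 and 0, with 0 higher in high versus medium. Members lower in low versus medium became 1 with the T0 minimum and 2 with the median. In high versus medium, the 5 lower became 3 with 5 added reads, 10 with the median, 0 with the trend and 1 with edgeR, DESeq2 or limma with the block. The 1 higher became 2 with the T0 minimum, 6 with the median, 3 with centring, and 0 with 5 added reads, the trend, edgeR or DESeq2. In the asymmetry, the 1 higher became 5 with 5 added reads, 8 with the T0 minimum, 14 with the median, 10 with centring, 2 with edgeR or DESeq2 and 0 with the trend or without the block, and 1 was lower with the T0 minimum or the median. Signs turned for *RPL5* (−0.28 with the median, −0.26 with edgeR, −0.25 with DESeq2), *RPL7A* (−0.028 with 5 added reads, −1.08 with edgeR, −1.10 with DESeq2) and *RPLP1* (−0.015 with the median) in high versus low; the cause was not tested.

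Leaving out each library in turn, limma on libraries called 13 to 28 members lower and 1 higher in high versus low, 5 to 23 higher and 0 to 1 lower in low versus medium, 1 to 5 lower and 1 to 3 higher in high versus medium, 0 to 9 higher and 0 to 1 lower in the asymmetry, and 40 to 42 lower since T0; the fewest in high versus low came without low replicate 2. Leaving out a library of the gate that a comparison does not use makes this fit equal to that on within-screen fold changes, which gives the upper ends of 28, 23 and 5. edgeR called 11 to 40 member sgRNAs lower and 0 to 1 higher in high versus low, and 116 to 152 lower since T0. Where this left 1 library in a gate, it was assumed to vary like the others. Over all genes, too, fewer were called lower in high versus low without low replicate 2, and counts over all genes are not given here for these fits.

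Relative to sgRNAs without a target, medians of all genes shifted: those controls stood at −0.09 and −0.08 in high versus low and 0.23 and 0.25 since T0. Centring on them moved the members to 26 lower and the share of higher calls among all genes to 78.3%, against 65.8%. For single sgRNAs, edgeR without the block or without the filter, and DESeq2 with the block, changed no other count by over 1.5 times. The planned limit to sgRNAs with 1 exact genome match was not run, since no sgRNA sequence was given. Depth limits single sgRNAs most, as 25 of 42 members had under 100 reads per sgRNA.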
